A study of Mus musculus with 84 samples.

Results

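HNF4α binding in colon epithelium of high-fat diet (HFD) and low-fat diet (LFD) mice is described here as 49524 sites. The sites were made by merging peaks that overlapped by at least 1 bp over the 4 HNF4α peak lists of the study, whose 84 samples also include histone modification, input and RNA samples. All 4 lists came from colon epithelium of male C57BL/6 mice after 20 weeks on diet, 2 from mice fed HFD and 2 from mice fed LFD, with diets begun in young animals that were housed singly. HFD and LFD are purified diets that the study describes by their share of fat. Their other components were not compared here. In ChIP-seq, an antibody, here against HNF4α, recovers the DNA that a protein is bound to, and a peak is a stretch with more recovered reads than its surroundings. The epithelium was shaken off the colon and was not sorted, so other cells could be present. The labels call the 2 lists of a diet replicates without naming animals, so differences between them may be partly technical. Each list gives positions without reads, so the depth behind a peak is unknown and a site is either present in a list or not listed there.

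HNF4α is a nuclear receptor of the gut, liver, kidney and pancreas that binds DNA as a dimer and recognises sites built around CAAAGTCCA. In the intestine it is known for keeping the epithelium differentiated, through genes of the brush border, cell junctions, transport and lipid metabolism. HNF4γ, its close relative, is made in the same epithelium and can bind the same sites. Sites with a peak in all 4 lists are called constant. HFD-only sites had a peak in both HFD lists and neither LFD list, and LFD-only sites had the opposite pattern.

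Constant sites close to the start of well known colon genes show what CAAAGTCCA, the word that HNF4α recognises, looks like in place. Which bases of a site were bound is not shown by a peak. The 4 sequences were taken from 27 constant sites that held CAAAGTCCA on either strand and whose nearest start belonged to a gene of the 13 function lists. Each is read 5′ to 3′ from the mm9 (NCBIM37) genome on the strand that carries the word, which stands in capitals. Muc13 codes for a mucin of the cell surface, and the printed bases are chr16:33794356-33794452 on the minus strand, directly before the transcribed part of the gene. Myo1a codes for the brush border myosin and had a pair of such sites before its start, at chr10:127141612-127141740 on the plus strand and chr10:127140446-127140574 on the minus strand. Nlrp6 codes for a sensor of microbial products, and its site, chr7:148108591-148108719 on the minus strand, lies in an exon 1816 bp downstream of the start. All 4 sites overlapped an H3K27ac peak, a mark of active promoters and enhancers, in 6 of the 6 male lists.
Muc13: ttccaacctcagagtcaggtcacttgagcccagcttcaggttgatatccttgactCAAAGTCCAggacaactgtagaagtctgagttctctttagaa
Myo1a: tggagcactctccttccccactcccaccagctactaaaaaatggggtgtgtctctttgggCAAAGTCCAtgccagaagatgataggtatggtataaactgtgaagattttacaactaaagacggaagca
Myo1a: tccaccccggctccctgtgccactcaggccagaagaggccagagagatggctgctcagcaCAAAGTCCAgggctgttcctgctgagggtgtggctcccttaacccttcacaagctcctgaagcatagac
Nlrp6: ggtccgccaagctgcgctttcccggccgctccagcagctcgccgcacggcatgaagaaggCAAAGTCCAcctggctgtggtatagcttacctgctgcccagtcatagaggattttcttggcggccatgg

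Sites of one diet could hold the same 9 letters. The word stood in 29 HFD-only and 37 LFD-only sites that had a linked gene and qualified for printing. The 3 nearest to a start are shown for each diet, together with the Tgfbi site, the only one of either kind that lay near a gene of the lists. These were chosen after the first values were seen, because no site of one diet with the word lay near a gene of the function lists. On the HFD side, Slc30a3 codes for a zinc transporter (chr5:31395989-31396074, plus strand), Cyp2c68 for a cytochrome P450 (chr19:39815600-39815728, minus strand) and Slc25a42 for a mitochondrial carrier of coenzyme A (chr8:72735620-72735748, minus strand). Cyp2c68 belongs to a family of near-identical genes where reads are hard to place. On the LFD side were sites at Nptn, a cell adhesion protein (chr9:58429603-58429731, plus strand), at A430005L14Rik (chr4:153331805-153331918, plus strand), at Tmem219 (chr7:134065209-134065337, minus strand) and in an intron of Tgfbi, a secreted matrix protein that TGF-β induces (chr13:56731491-56731619, minus strand). The Slc30a3 site overlapped H3K27ac in 0 of the 6 male lists, the Tmem219 site in 2, the Cyp2c68 site in 5 and the others in 6.
Slc30a3: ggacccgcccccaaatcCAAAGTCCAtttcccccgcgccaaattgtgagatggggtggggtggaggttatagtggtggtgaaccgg
Cyp2c68: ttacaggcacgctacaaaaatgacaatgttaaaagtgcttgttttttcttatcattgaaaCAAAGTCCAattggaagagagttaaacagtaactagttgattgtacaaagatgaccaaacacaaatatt
Slc25a42: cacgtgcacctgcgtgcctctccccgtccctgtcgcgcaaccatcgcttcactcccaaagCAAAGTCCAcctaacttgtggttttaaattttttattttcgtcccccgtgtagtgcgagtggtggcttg
Nptn: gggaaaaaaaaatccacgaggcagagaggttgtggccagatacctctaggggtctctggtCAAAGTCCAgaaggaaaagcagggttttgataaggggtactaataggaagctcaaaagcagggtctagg
A430005L14Rik: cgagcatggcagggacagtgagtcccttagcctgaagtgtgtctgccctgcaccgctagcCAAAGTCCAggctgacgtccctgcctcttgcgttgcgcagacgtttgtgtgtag
Tmem219: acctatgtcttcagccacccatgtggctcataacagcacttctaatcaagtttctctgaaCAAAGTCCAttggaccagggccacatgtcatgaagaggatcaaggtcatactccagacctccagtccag
Tgfbi: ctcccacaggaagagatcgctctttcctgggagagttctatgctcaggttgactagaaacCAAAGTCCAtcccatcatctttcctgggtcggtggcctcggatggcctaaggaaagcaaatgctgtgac

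The sites most often present were the constant ones. They numbered 8494, which is 17.2% of all sites, whereas 27383 sites were present in a single list. HFD-only sites numbered 929 (1.88% of sites) and LFD-only sites 1564 (3.16%). Sites present in 3 lists came to 5566. The remaining 5588 sites were present in 1 HFD and 1 LFD list. Of these, 2187 joined HFD replicate 1 with LFD replicate 1, 1944 HFD replicate 2 with LFD replicate 1, 742 HFD replicate 1 with LFD replicate 2, and 715 HFD replicate 2 with LFD replicate 2. The 929 sites of the HFD pair and the 1564 sites of the LFD pair both lay between the lowest and the highest of those 4 counts for lists of different diets.

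The lists differed in length within a diet as well as between diets. HFD replicates 1 and 2 held 22640 and 22506 peaks, and LFD replicates 1 and 2 held 27766 and 21308. Both HFD lists therefore lay between the LFD lists. The mean difference, HFD minus LFD, was -1964 peaks (p = 1, two-sided exact permutation test, 2 lists per diet, smallest possible p = 0.333), and without LFD replicate 1 it turned to 1265. The ratio of LFD-only to HFD-only sites was 1.68 and also moved with the lists used. With LFD replicate 1 left out there were 2.61 LFD-only sites for each HFD-only site, and with LFD replicate 2 left out 7.01. Leaving out HFD replicate 1 or 2 gave 0.431 and 0.414, so that HFD-only sites were then the more numerous. Leaving out a list leaves 1 list to meet for its own diet and 2 for the other, which sets the direction of these ratios.

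Sharing between lists did not sort by diet. The HFD lists shared 12029 sites, which were 53.1% of the peaks of replicate 1 and 53.5% of those of replicate 2. Of the peaks of HFD replicate 1, 63.7% were met in LFD replicate 1 and 50.3% in LFD replicate 2. The LFD lists shared 13018 sites, or 46.9% of the longer list and 61.1% of the shorter one. HFD replicate 1 thus had more of its peaks in the longest LFD list than in the other HFD list.

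**Figure D1:**
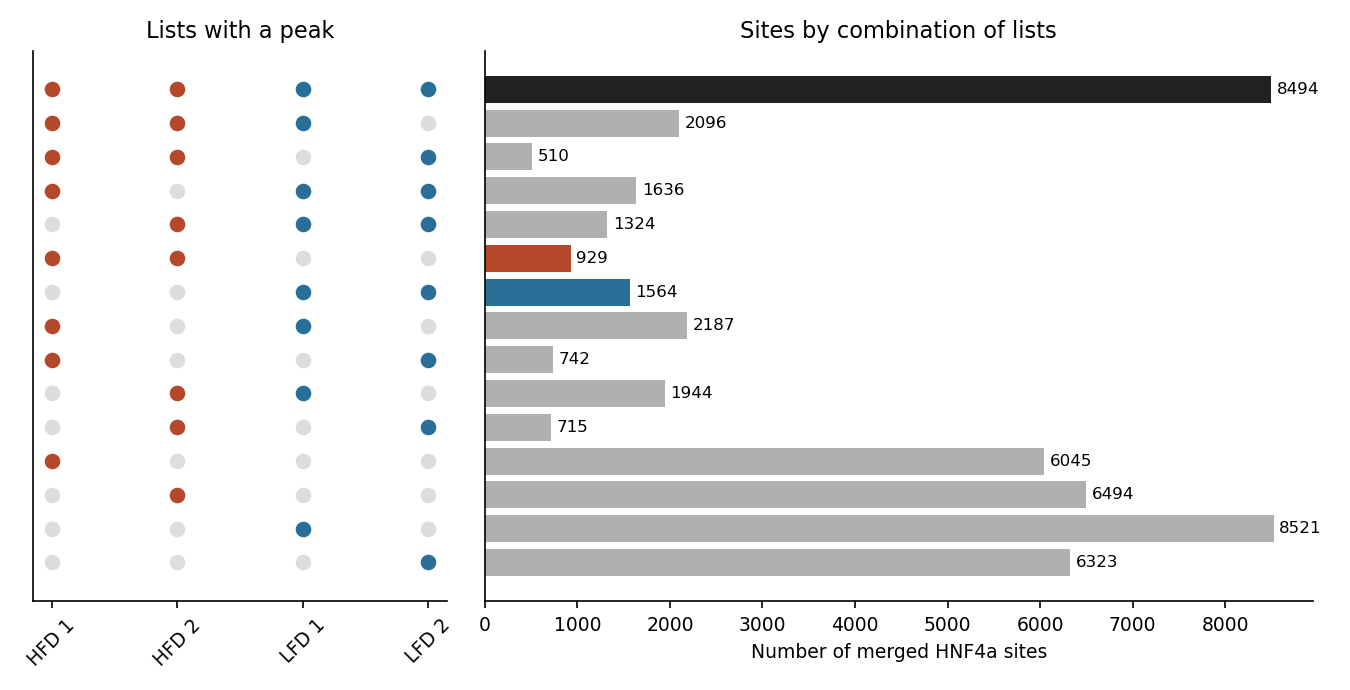
Number of HNF4α sites with each pattern of presence over the 4 lists. Sites of both HFD lists only (929) and both LFD lists only (1564) stand between the 715 and 2187 sites shared by exactly 1 HFD and 1 LFD list, and constant sites number 8494.

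The list of HFD replicate 1 was grouped by chromosome but, within a chromosome, deposited in an order other than position, and presence elsewhere followed that order closely. What the order stands for was not given in the sources used here. Among the first 10% of the rows of each chromosome, 99.3% of peaks were also in HFD replicate 2, 99.7% in LFD replicate 1 and 99.02% in LFD replicate 2. Among the last 10%, these shares were 3.70%, 5.72% and 1.76%. The word CAAAGTCCA was present in 16.5% of the first peaks and 2.07% of the last. Of the 929 HFD-only sites, 0 fell in the first 10% of rows and 243 (26.2%) in the first 50%, against 88.5% of constant sites. Their median place was 64.5% of the way down the rows of their chromosome, that of constant sites 20.2%, and that of sites in this list and LFD replicate 1 alone 63.7%. The HFD-only sites with the earliest rows, named after their values were seen, lay near Gm5614 (10.1% of the way down), Epb4.1l4b (11.5%), Nedd9 (15.4%), Cmtm4 (16.6%), 0610009L18Rik (16.8%) and Rreb1 (17.8%). The other 3 lists were sorted by position and gave no such order, so LFD-only sites have no counterpart to these values.

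**Figure D2:**
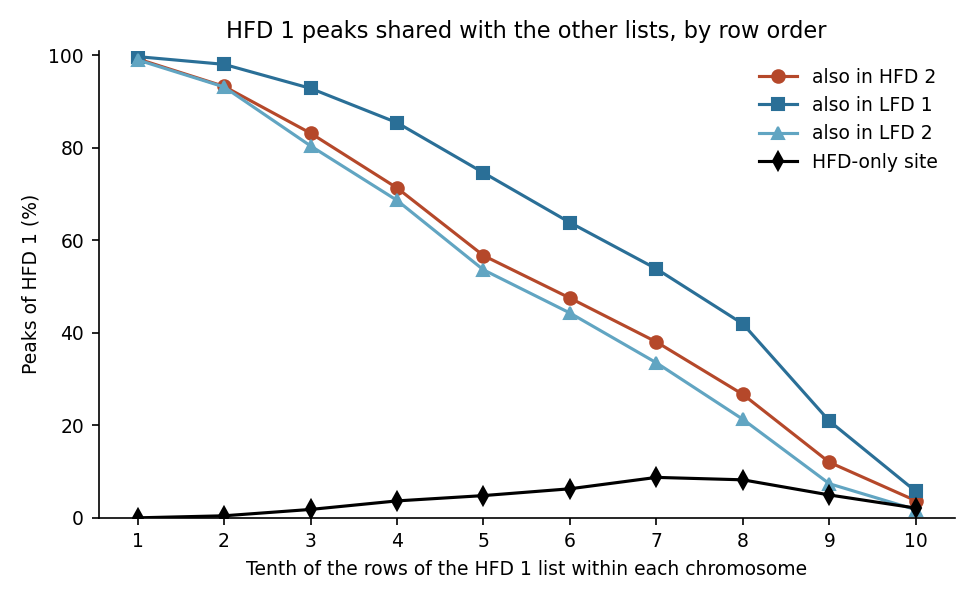
Peaks of HFD replicate 1 in 10 equal groups by row order within each chromosome (x axis), with the percentage of peaks also present in each other list or in an HFD-only site (y axis). Presence in HFD replicate 2 goes from 99.3% in the first group to 3.70% in the last, and presence in both LFD lists takes a like course.

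Sites of one diet lay closer to gene starts than constant sites did. Of constant sites, 12.1% had their centre within 1 kb of the start of a protein-coding gene (95% Clopper-Pearson interval 11.4 to 12.8, which covers counting error only). The share was 19.1% for HFD-only sites (16.6 to 21.7) and 24.7% for LFD-only sites (22.6 to 26.96). Sites of 1 HFD and 1 LFD list had 20.8% in all and sites of a single list 15.8%. The mixed-diet pairs differed among themselves, with 14.9% for HFD replicate 1 with LFD replicate 1, 19.3% for HFD replicate 2 with LFD replicate 1, 28.8% for HFD replicate 1 with LFD replicate 2 and 34.3% for HFD replicate 2 with LFD replicate 2. The pairs with LFD replicate 2 were thus the higher ones, and both one-diet classes lay within the range of the mixed-diet pairs. Most sites lay elsewhere in every class: 39.6% of constant, 35.8% of HFD-only and 34.0% of LFD-only sites were in introns, and 46.4%, 43.9% and 39.5% lay between genes. A constant site lay within 10 kb of 21.2% of HFD-only, 21.0% of LFD-only and 21.0% of mixed-diet pairs, against 11.6% of sites in a single list.

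The HNF4 word was most frequent at constant sites, of which 11.8% held CAAAGTCCA on either strand (11.2 to 12.6). HFD-only sites held it in 5.06% (3.74 to 6.67) and LFD-only sites in 3.71% (2.83 to 4.77). Sites of 1 HFD and 1 LFD list held it in 5.26% (4.69 to 5.88), and sites of a single list in 2.23%. Among the mixed-diet pairs the share ran from 1.96% for HFD replicate 2 with LFD replicate 2 to 7.27% for HFD replicate 1 with LFD replicate 1, a range that took in both one-diet classes and lay below constant sites. In windows of equal width 1000 bp away the shares were 0.495%, 0.108% and 0.575% for constant, HFD-only and LFD-only sites. Over 45962 RefSeq promoters (250 bases before to 50 after a start) it was 0.455%. Sites of a single list held the word in 2.68% and 1.08% of cases for HFD replicates 1 and 2, and in 3.59% and 1.14% for LFD replicates 1 and 2.

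The words of AP-1, CDX2 and KLF factors were not most frequent at constant sites. TGACTCA, the site of AP-1, a dimer of Fos and Jun proteins, was found on either strand in 15.99% of constant and 16.7% of HFD-only sites (14.3 to 19.2). LFD-only sites held it in 11.4% (9.91 to 13.1), and mixed-diet pairs in 15.1%. Among sites of a single list its share was 7.775% and 10.9% for HFD replicates 1 and 2. For LFD replicates 1 and 2 it was 9.38% and 6.5%, so the diets overlapped at sites of a single list. The word of CDX2, the homeodomain factor of hindgut identity, was met in 6.70% of constant, 8.07% of HFD-only and 6.59% of LFD-only sites. The shares of the KLF word, for zinc-finger factors that bind GC-rich promoters, were 10.1%, 12.1% and 12.5%, against 9.43% of all promoters. In windows 1000 bp from constant, HFD-only and LFD-only sites the KLF shares were 3.99%, 3.66% and 3.20%. The AP-1 word stood in 5.31%, 5.38% and 5.63% of those windows, and the CDX2 word in 1.74%, 2.91% and 1.79%. A match of letters is no evidence that a factor was bound.

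Each site was linked to the protein-coding gene with the nearest start within 50 kb, which placed 34838 sites (70.4%) at 13249 of 22219 genes. A constant site was linked to 4206 genes (18.9% of all genes). Shroom3, which shapes the apical cell surface, led with 9 constant sites and 17, 17, 15 and 13 peaks in HFD replicates 1 and 2 and LFD replicates 1 and 2, the order used for all peak counts below. Slc26a3, the chloride-bicarbonate exchanger of colon, had 8 constant sites and 10, 9, 10 and 11 peaks, so its lists overlapped between diets. Mgat5, an enzyme that branches glycans, also had 8 constant sites, but its 9 and 10 peaks in the HFD lists lay below the 16 and 12 of the LFD lists. Eps8, which caps and bundles actin in microvilli, had 7 constant sites. Mtus1 and Max with 8, and Mical2, Slc20a1, Slc35f5 and Gm10384 with 7, completed the 10 genes with most constant sites.

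Every member of 2 function lists had a constant site. In the brush border and keratin list these were 12 of 12, with 42 constant sites between them, read beside the 18.9% of all genes. Pls1, the plastin of microvilli, had 6 constant sites and 9, 9, 8 and 8 peaks. Ezr, which ties actin to the membrane, had 5, and Vil1, the actin-binding villin, had 6, from 521 bp upstream to 32684 bp downstream of its start. In the list for bile acids and xenobiotics, also 12 of 12, the nuclear receptor gene Nr1i2 (PXR) had 4 constant sites and 4, 6, 4 and 5 peaks. Its other members included Cyp2c55 with 4 constant sites and the export pump genes Abcc3 with 4 and Abcb1a with 3. Cell junction genes had one in 11 of 12 cases, intestinal transcription factors in 11 of 14 and fatty acid oxidation in 9 of 12. Of the junction genes, Cldn7 and Cldn23 had 3 constant sites each and Cldn2 had 0.

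Other functions were linked to constant sites less often. The count was 8 of 12 for the circadian clock, 6 of 12 for ion and water transport and for Wnt targets and stem cell genes, 6 of 11 for cholesterol and fatty acid synthesis, and 6 of 10 for AP-1 and ATF3 factors. It was 5 of 12 for microbial response and 4 of 12 each for goblet cell genes and for lipid absorption. Within lipid absorption, Fabp2 and Plin2, which bind fatty acids and coat lipid droplets, had 4 constant sites each. Apoa1, Apoa4 and Npc1l1 of the same list had no linked peak in any list. Muc2, the main secreted mucin, and Lgr5, the stem cell receptor, also had 0 linked peaks in all 4 lists. A site was linked to the nearest start only, so a peak closer to a neighbouring gene was not counted for these genes. Ion transport was uneven too: Aqp8, a water channel, had 6 constant sites, and Car1 and Car4, carbonic anhydrases, had 3 each, whereas Cftr had none.

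Constant sites were more frequent at markers of the labelled tissue than at markers of other cells. All 8 epithelium markers had a constant site, 24 sites in all, beside 18.9% of all genes. None of the 8 leukocyte, 8 fibroblast or 8 neuron and glia markers had one. Smooth muscle markers had one in 2 of 8 cases (Mylk and Actg2) and endothelium markers in 3 of 8, both above the share of all genes. Leukocyte markers summed to 3, 3, 1 and 0 peaks over the 4 lists and smooth muscle markers to 10, 15, 13 and 9. The part of other cells in differences between lists was not tested.

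**Figure D3:**
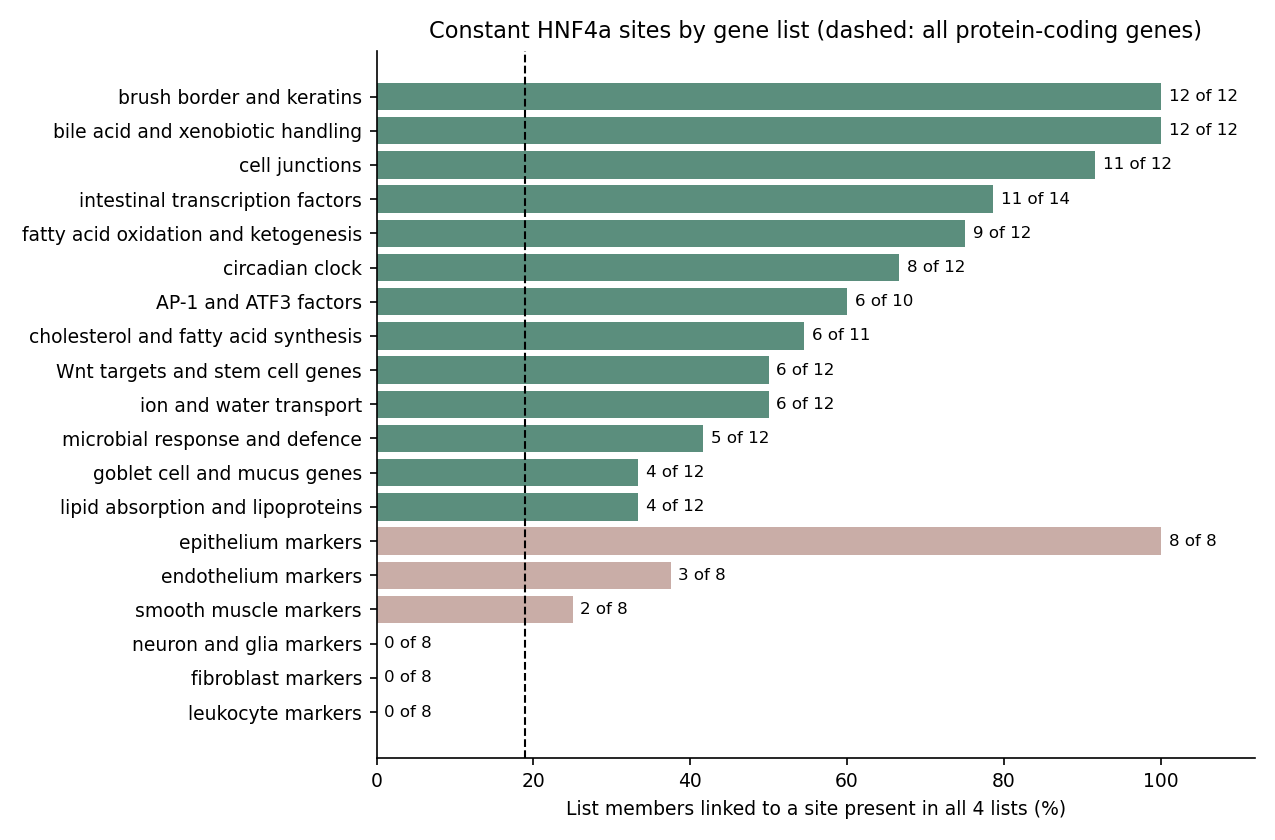
Percentage of the members of each list linked to a constant HNF4α site (x axis), for function lists (green) and cell type markers (pink), with the 18.9% of all protein-coding genes as a dashed line. Brush border, bile acid and epithelium marker genes all had a constant site, and none of the leukocyte, fibroblast or neuron and glia markers did. Endothelium markers (3 of 8) and smooth muscle markers (2 of 8) lay above the dashed line.

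HFD-only sites were linked to 684 genes (3.08% of all genes), and 328 of these also had a constant site. No gene had more than 2 of them. Il13ra1, a receptor chain for interleukin 13, had them 82 and 3619 bp upstream of its start. Slc41a2, a magnesium transporter, had them 93 and 5924 bp upstream. Zswim3 had 2 and 3 peaks in the HFD lists and 0 in both LFD lists, and Ppp6r1, a subunit of protein phosphatase 6, had 3 and 2 against 0 and 0. At other genes of this group the HFD-only sites stood among sites of both diets. Efnb2, the ligand ephrin B2, had 6 and 6 peaks against 4 and 4, and Rreb1, a zinc-finger factor of the Ras pathway, had 15 and 12 against 10 and 10. Sertad2, Wdfy3, Sgpp2 and Tmem171 made up the 10 genes named by number and nearness. The nearer site of Tmem171 lay 912 bp from its start, and the same gene had an LFD-only site 5435 bp upstream.

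LFD-only sites were linked to 1159 genes (5.22%), of which 510 also had a constant site, and 73 genes had sites of both kinds. The genes named by their number had 3 each. Nfkbiz, which codes for a nuclear regulator of NF-κB targets, had 1 peak in each HFD list and 4 in each LFD list, and 1 of its LFD-only sites lay 10 bp from a start. Myof, a membrane repair protein, had 0 peaks in both HFD lists and 3 in both LFD lists. Slc11a2, the iron importer, had the same 4 counts but 2 LFD-only sites, and is named for its peak counts. Cpeb4, which binds the tails of messenger RNA, had 4 and 4 peaks against 10 and 8, and Cnst, a protein of connexin transport, had 2 and 3 against 7 and 6. These 5 genes were picked for their LFD-only sites or peak counts, which sets the direction. Tbl1xr1, Zfp217, Aig1, Gigyf2 and Ptprj were also named by number of LFD-only sites. The diets overlapped at Zfp217, with 6 and 5 peaks against 8 and 6, and at Ptprj, with 9 and 4 against 9 and 11.

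Peak counts per gene separated the diets at more genes in the LFD direction. Both HFD lists held more peaks than either LFD list at 498 of 13249 linked genes (3.76%), and both LFD lists held more at 990 (7.47%). Most separations were by a single peak. A gap of at least 2 was found at 27 genes in the HFD direction and 81 in the LFD direction, and of at least 3 at 1 and 11. The gene of the HFD direction was Eps8, with 13 and 12 peaks against 9 and 9. Beside Cpeb4, a gap of 4 was met at Casz1, a zinc-finger factor, with 8 and 7 peaks against 12 and 12. Gpam, the first enzyme of triglyceride synthesis, had 2 and 2 against 5 and 5. Sqrdl, the mitochondrial enzyme that oxidises sulfide, had 5 and 4 against 9 and 8, and Tgm3, a transglutaminase, 2 and 2 against 5 and 5. The total of linked peaks was 16633 and 16475 in the HFD lists and 20802 and 15488 in the LFD lists, and its part in these counts was not tested.

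**Figure D4:**
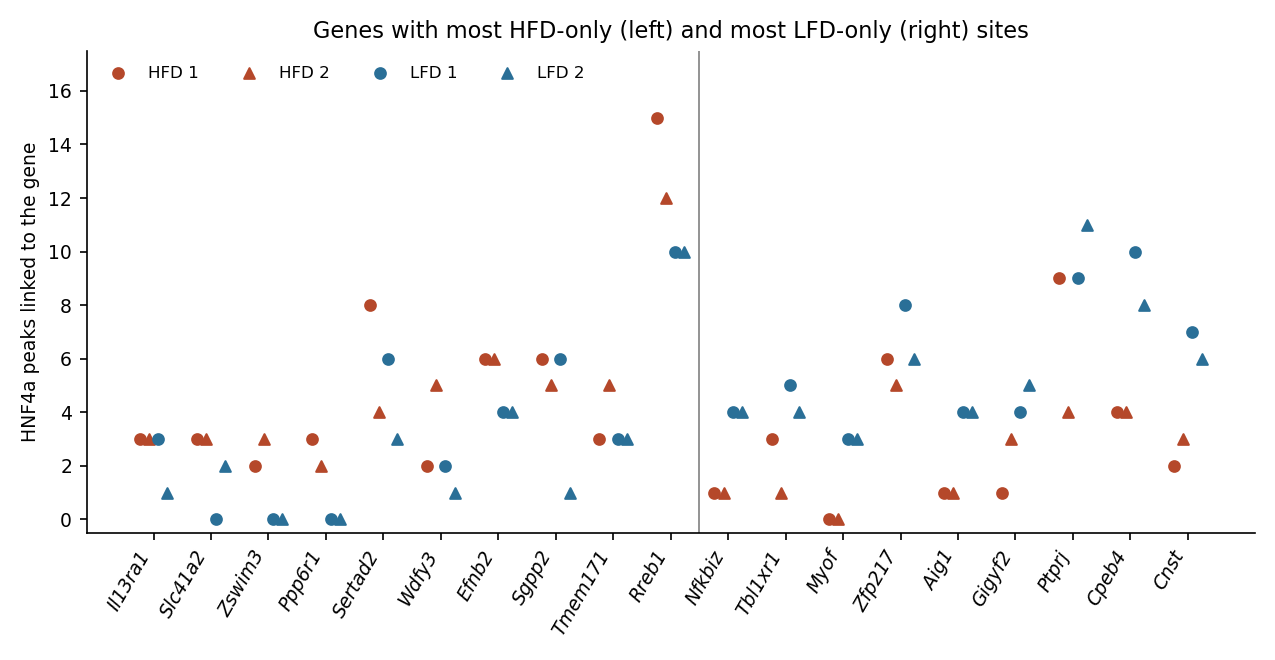
Number of HNF4α peaks linked to each of the 10 genes with most HFD-only sites (left) and to genes with most LFD-only sites (right), 1 point per list. Ppp6r1 has 3 and 2 peaks in the HFD lists against 0 and 0, and Cpeb4 has 4 and 4 against 10 and 8 in the LFD lists, whereas at Sertad2 and Ptprj the diets overlap.

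Regulators of the intestinal epithelium had sites of both diets. LFD-only sites lay at Hnf4a, Hnf4g, Klf4, Klf5 and Nr5a2, and HFD-only sites at Elf3, Foxa1 and Gata6. Of all genes, 5.22% had an LFD-only and 3.08% an HFD-only site. Of the 4206 genes with a constant site, 510 had an LFD-only and 328 an HFD-only site. Shares of all genes or all linked genes, here and below, were not matched for sites per gene. Hnf4a itself had 3 and 4 peaks in the HFD lists and 5 and 6 in the LFD lists, with an LFD-only site at chr2:163359671-163359947, in an intron 2948 bp from the nearest start. Klf5, a factor of proliferating crypt cells, had 2 and 2 against 5 and 4, and its LFD-only site lay 38865 bp upstream and overlapped H3K27ac in 0 of the 6 male lists. Elf3, an epithelial ETS factor, had its HFD-only site 216 bp upstream of the start, at chr1:137155105-137155422, but counted 6, 8, 8 and 6 peaks in all. Foxa1, a pioneer factor, had an HFD-only site 758 bp upstream, at chr12:58647736-58647996, although its total of 3 and 3 peaks lay below the 5 and 4 of the LFD lists. More peaks in both LFD lists than in either HFD list were found at Hnf4a, Klf4, Klf5 and Foxa1. The reverse was found at 0 of the 14 factors. Over all linked genes the shares were 7.47% and 3.76%. Per 1000 linked peaks, the list as a whole had 3.07 and 2.79 in the HFD lists and 3.03 and 3.68 in the LFD lists, which overlapped.

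Of 12 brush border genes, 3 had more peaks in both HFD lists than in either LFD list and 0 had the reverse, beside 3.76% and 7.47% of all linked genes. These were Eps8, Pls1 and Cdhr2, the last a protocadherin that links microvilli, with 3 and 3 peaks against 2 and 2. Pls1 and Cdhr2 separated by a single peak. The 12 genes had 42 constant sites between them, and the shares of all linked genes were not matched for sites per gene. The part of the number of sites in these counts was not tested. HFD-only sites lay at Cdhr2 (7945 bp downstream of its start), Pls1 (13068 bp upstream) and Krt19 (13517 bp upstream), and an LFD-only site lay 45382 bp upstream of Ezr. Summed over the list, the peaks were 65, 59, 59 and 53, or 3.91, 3.58, 2.84 and 3.42 per 1000 linked peaks. On both scales HFD replicate 1 was highest, and on the second both HFD lists lay above both LFD lists, the nearest pair being 3.58 and 3.42.

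Sites of one diet at metabolic genes varied by list. In cholesterol and fatty acid synthesis, LFD-only sites were linked to 3 of 11 genes and an HFD-only site to 1 of 11, beside 5.22% and 3.08% of all genes. The 3 genes were Srebf2, the regulator of sterol synthesis, Fasn, which makes fatty acids, and Scd2, a desaturase. The HFD-only site lay 34258 bp upstream of Insig1, a brake on that pathway. In fatty acid oxidation, Ppara, the receptor that switches on fatty acid burning, had an LFD-only site 30716 bp downstream and counted 4 and 5 peaks against 7 and 6. Cpt1a, the gate of fatty acid entry into mitochondria, had 3 and 3 against 4 and 4. For lipid absorption, 1 of 12 genes, Apob, had an HFD-only site and 0 had an LFD-only site, beside backgrounds of 3.08% and 5.22% of genes. In bile acid handling, Nr1h4 (FXR) and Abcc3 had an HFD-only site and Slc10a2, the ileal bile acid importer, an LFD-only site 1809 bp upstream.

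Transport, junction, clock and stress genes added single sites. HFD-only sites lay at Cftr (45443 bp downstream), where the HFD lists had 1 peak each and the LFD lists 0, and at Slc9a3, the sodium-proton exchanger. Slc4a4, a bicarbonate cotransporter, had a site of each kind. Cldn2 and Cldn3 had an LFD-only site each. Arntl (BMAL1), a core activator of the clock, had an HFD-only site 2036 bp downstream of its start and 9 and 9 peaks against 7 and 6. Per3, a clock repressor, had a lone LFD-only site 201 bp upstream, with 0 and 0 peaks against 1 and 1, and Nr1d1 had one 2058 bp downstream. Atf3, a stress factor, had 2 LFD-only sites, the nearer 1768 bp upstream, and Fosl1 had an HFD-only site. Rnf43, a brake on Wnt receptors, had 2 HFD-only sites and 1 LFD-only site. Over all lists, 22 HFD-only sites lay at 21 of 203 members and 24 LFD-only sites at 23, beside 3.08% and 5.22% of all genes. Of the 22 HFD-only and 24 LFD-only sites at members, 16 and 20 overlapped H3K27ac in all 6 male lists. Another measure, the mean share of a single list, was 73.0% of all HFD-only and 77.1% of all LFD-only sites. Presence in all 6 lists is the stricter measure, so the 2 cannot be compared directly.

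A further list held Fmo1, Fmo2, Scd1 and Sulf2, which the study discusses for HNF4α in recipients, and Tgfbi and Smad5. It was chosen with the study's results known and is not independent evidence. Sulf2, an enzyme that trims heparan sulfate, had an HFD-only site 1662 bp upstream, at chr2:165982674-165982974, a constant site in an intron and 4, 3, 3 and 1 peaks. Tgfbi had 3 and 3 peaks against 5 and 4 and 3 constant sites. Scd1, the main desaturase, had the same 2 constant sites in all lists, 17926 and 18880 bp from its start. The 2 monooxygenase genes had few peaks, Fmo1 with 1, 1, 1 and 0 and Fmo2 with 0, 0, 1 and 0. Smad5, a mediator of BMP signals, had 3, 1, 1 and 1.

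Histone marks were measured in other libraries and did not enter the choice of sites. H3K27ac peaks covered 85.9% to 92.2% of constant sites over the 6 male lists. H3K4me1, a mark of enhancers both active and poised, covered 93.3% to 95.2% of them. At HFD-only sites H3K27ac was found in 69.9%, 75.7% and 76.1% of cases in the 3 HFD male lists and in 74.7%, 70.3% and 71.4% in the 3 LFD male lists. At LFD-only sites it was found in 75%, 79.1% and 80.2% and in 77.8%, 75.9% and 74.9%. LFD-only sites were thus the more often marked in every male list, whichever the diet, and the diets overlapped at both kinds of site. Mixed-diet pairs had 68.5% to 75.9% and sites of a single list 38.9% to 43.2%. H3K4me1 was the other way round, with 82.4% to 85.7% at HFD-only and 80.1% to 83.5% at LFD-only sites.

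The share at HFD-only minus the share at LFD-only sites within a list gives a value per library for the question whether the mark follows the diet of the site. For H3K27ac in males it was -4.21 ± 0.868 percentage points (SD, n = 3) under HFD and -4.05 ± 1.36 (n = 3) under LFD. The difference between diets was -0.16 points (p = 0.9, two-sided exact permutation test, smallest possible p = 0.1; adjusted p = 0.9 over 7 mark tests). In females, whose HNF4α sites were not measured, the values were -4.13 ± 0.827 and -6.50 ± 1.09 (n = 3 each). The LFD female H3K27ac lists were also shorter, with 38317 to 39980 peaks against 40260 to 42852 under HFD. They covered 84.3% to 87.0% of constant sites, against 88.5% to 90.1%. The part of list length was not tested. In females the diets did not overlap in the value per library, and the difference was 2.37 points (exact permutation p = 0.1, the smallest possible; adjusted p = 0.289). Over both sexes it was 1.106 points (exact permutation p = 0.165, adjusted p = 0.289), and an exact permutation test of the difference between the sexes gave p = 0.11. For H3K4me1 the difference was -0.25 points in males (exact permutation p = 0.8, adjusted p = 0.9), 1.20 in females (exact permutation p = 0.1, adjusted p = 0.289) and 0.477 over both sexes (exact permutation p = 0.435, adjusted p = 0.609). With 3 lists per diet, no test within a sex could pass 0.05.

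The last set of H3K27ac lists came from male germ-free C57BL/6 recipients that were fed HFD or LFD and given stool of HFD or LFD donors by gavage for some weeks. The value was -5.59 ± 0.825 points in 5 lists of HFD-fed and -6.23 ± 0.676 points in 6 lists of LFD-fed recipients, ranges that overlapped. The mean difference within donors was 0.735 points (exact permutation p = 0.125, diets permuted within donor, smallest possible p = 0.005; adjusted p = 0.289). HFD-only sites carried the mark less often than LFD-only sites in all 11 recipient lists, with 60.4% to 73.6% against 67.1% to 78.8%. The sign of the difference between diets rested on which HNF4α lists defined the sites. With HFD replicate 1 or 2 left out, the recipient difference was -2.895 and -1.58 points (unadjusted exact permutation p = 0.005 and 0.04). With LFD replicate 1 or 2 left out it was 3.23 and 1.75 points (unadjusted exact permutation p = 0.01 and 0.005). Over both sexes of the 20-week mice the same 4 omissions gave -1.101, -0.6255, 2.347 and 1.565 points for H3K27ac (unadjusted exact permutation p = 0.01, 0.185, 0.06 and 0.005). In each of these settings the class of the diet that lost a list rested on 1 list, as did 7423 HFD-only sites without HFD replicate 1, and the other class on both lists of its diet.

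**Figure D5:**
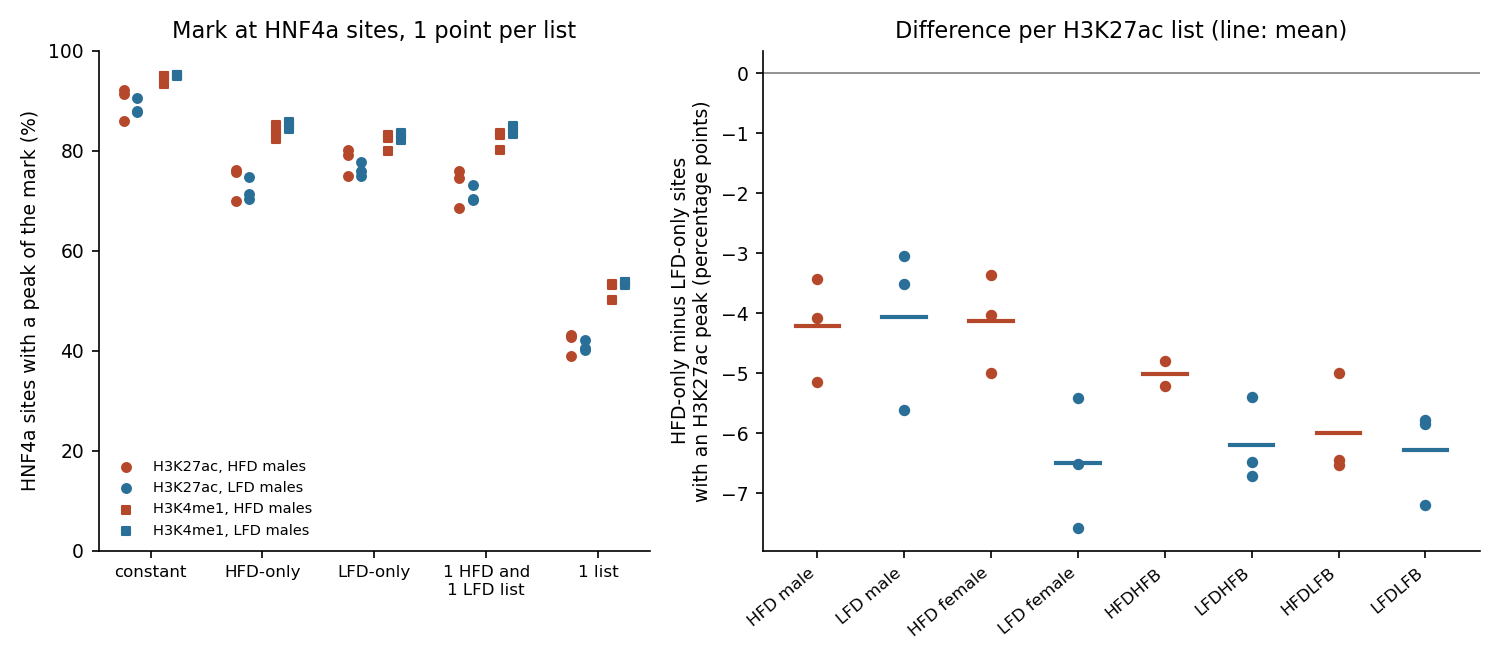
Left, percentage of HNF4α sites of each class that overlapped an H3K27ac or H3K4me1 peak in each male list; right, share at HFD-only minus share at LFD-only sites in each H3K27ac list, in percentage points, with the mean of each group as a line. The male diets overlap in every class, and all 23 differences lie below 0.

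Expression of the linked genes was available from the same recipients, in 12 RNA-seq libraries of 39904191 to 48026846 counted reads (3 for each combination of diet and donor bacteria). No RNA counts from the mice of the HNF4α lists were used here. RNA came from cells scraped off the colon, and smooth muscle markers had a median of 422 CPM (counts scaled to equal library size) beside 1050 for epithelium markers. Fewer cells of a type and less RNA per cell cannot be told apart in such samples. Medians were taken over genes with enough reads to be tested and a match in the annotation. These were 44.2% of genes without a linked site and 89.9% of genes with a constant site. Genes without a linked site had a median of 5.61 CPM and genes with a constant site 49.4. Genes with HFD-only sites had 40.2 and genes with LFD-only sites 45.3. The median climbed with the number of constant sites, from 12.5 CPM at 0 to 35.9 at 1, 61.9 at 2, 106 at 3 to 4 and 157 at 5 or more. The share of genes tested climbed too, from 62.3% at 0 to 95.5% at 5 or more. This is a description across genes, which are not independent replicates, and CPM does not allow for gene length.

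Between HFD-fed and LFD-fed recipients, edgeR's quasi-likelihood test called 0 of 15893 genes higher and 0 lower at an adjusted p under 0.05 (0.0% of genes tested each way), and 468 had an unadjusted p under 0.05. Leaving out 1 library moved that last count to between 306 and 1405. It was 1405 without LFDHFB replicate 3, 873 without HFDHFB replicate 1 and 788 without HFDLFB replicate 3, and 306 without LFDHFB replicate 2. The names give the diet fed and then the donor bacteria (HFB or LFB). DESeq2 called 2 higher and 4 lower. Of these 6, Slc2a5, the fructose transporter, had constant sites (2 of them), and DESeq2 gave it a log2 fold change of -0.70. An unadjusted p under 0.05 was met by 2.89% of the tested genes placed on the genome, 3.31% of genes with a constant site, 2.25% with an HFD-only site and 2.33% with an LFD-only site. Hnf4a itself had 942 to 1370 CPM (median 1180) in 6 HFD-fed and 965 to 1500 CPM (median 1280) in 6 LFD-fed recipients, which overlapped, with a log2 fold change of -0.10 ± 0.136 (SE) and an adjusted p of 1.0. Klf5 and Elf3 had log2 fold changes of -0.23 and -0.14, Eps8 of -0.25 and Cpeb4 of -0.10, all with an adjusted p of 1.0 by edgeR. Sulf2 had 10.7 to 34.5 CPM (median 14.7) in HFD-fed and 9.36 to 29.4 CPM (median 14.3) in LFD-fed recipients, again overlapping. Fos, with 4 constant sites, had 66.3 to 102 CPM (median 75.3) in HFD-fed and 92.8 to 163 CPM (median 121) in LFD-fed recipients, ranges that overlapped, and its log2 fold change was -0.64 (unadjusted p = 0.00153 by edgeR, adjusted p = 1.0). Summed over the 13 function lists, edgeR called 0 members in either direction.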

How the data were processed

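HNF4α, H3K27ac and H3K4me1 ChIP-seq and RNA-seq of mouse colon epithelium were used. According to the labels and the methods, the authors aligned reads to mm9 with Bowtie 0.12.8, kept unique reads without duplicates (Picard 1.110), and called peaks per sample with HOMER at default settings (HNF4α) or SICER (histone marks). The lists the authors deposited hold positions only; their reads and the inputs were not used here. RNA counts per gene were deposited by the authors after STAR 2.5 and featureCounts 1.5.0-p1.

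Peaks overlapping by 1 bp were merged into sites; 1 HNF4α peak on an unplaced sequence was left out. Sites were linked to the nearest protein-coding start within 50 kb (NCBIM37), and words were searched on both strands. A histone peak overlapping a site by 1 bp counted as present. For mark shares, diets were exchanged over libraries in an exact permutation test (two-sided; Python 3.11.15, scipy 1.17.1), and RNA counts were tested with edgeR 4.0.16 (TMM, filterByExpr, quasi-likelihood test, Benjamini-Hochberg) in R 4.3.3, with DESeq2 1.42.0 as an alternative. Presence per list is a description with no test. Genes named were the 10 with most constant, HFD-only and LFD-only sites, and members of the fixed lists; those with a gap of 3 or more peaks, and others so marked, were chosen after values were seen. The members and lists were chosen with earlier results of these data known. On simulated counts 174 of 200 changed genes were recovered with 8 other calls (15893 genes). The changes were planted in genes above 1 CPM. Recovery was 58 of 83 at 2-fold, 54 of 55 at 4-fold and 62 of 62 at 8-fold. Smaller changes were not simulated, so recovery of such changes is unknown. Each gene was drawn independently, without shifts shared by many genes of a library, so recovery under such shifts is unknown too. All 1500 planted sites were recovered, but they were spaced so that neighbours did not overlap. Sequences of promoters came from RefSeq. Hmgcs1 could not be placed. Some named members are not reported here.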

Additional observations from a re-analysis of the deposited data

How the results depend on the processing

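The counts of sites and the split between diets moved with the lists used. Leaving out each HNF4α list in turn gave 1439 to 7423 HFD-only and 2888 to 10085 LFD-only sites and a difference in peaks per list of -5193 to 1265. Requiring 100 bp of overlap gave 911 and 1491. HFD-only sites in the first 50% of rows of HFD replicate 1, an alternative chosen after seeing the data, numbered 243. Linking within 10 kb gave 2725, 382 and 706 genes for constant, HFD-only and LFD-only sites. In the central 100 bp the HNF4 word was met in 10.3% of constant and 2.69% of LFD-only sites. Requiring 50% of the site inside the histone peak turned the H3K27ac difference to 0.0361 points in males and -0.203 in recipients, and sites over 5 kb from a start gave 0.139 and -0.194.

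Leaving out each library in turn, HNF4α lists included, gave H3K27ac differences of -1.507 to 1.136 points in males, -0.716 to 3.786 in females, -1.101 to 2.347 over both sexes and -2.895 to 3.23 in recipients, and H3K4me1 differences of -0.926 to 0.477, -0.161 to 1.529 and -0.088 to 0.839. The H3K4me1 difference over both sexes passed 0.05 without HFD HNF4α replicate 2 (0.409 points, unadjusted exact permutation p = 0.02), and the cause was not tested. DESeq2 called 2 genes higher and 4 lower, and edgeR called 0 without any one RNA library. Replicate numbers did not pair the samples (over sites, the replicate 1 minus replicate 2 difference in HNF4α presence of the HFD lists correlated with that of the LFD lists at 0.00918). For peaks and marks, the replicate block was an exact permutation test that flipped signs within replicate pairs. With the block, the difference in peaks per list was -1964 (exact permutation p = 1). The H3K27ac difference in females was 2.371 points (exact permutation p = 0.25, the smallest possible). With 2 pairs of HNF4α lists, or 3 pairs of histone lists within a sex, it could not pass 0.05 and so could not change those calls. Elsewhere the block changed no call. In edgeR the block moved the RNA count at an unadjusted p under 0.05 from 468 to 280. Depth behind the peaks is unknown.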
